A study of Mus musculus with 6 samples.

Results

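The genes examined here encode 8 structural proteins of the myelin sheath, *Mbp*, *Mobp*, *Mal*, *Cnp*, *Mag*, *Cldn11*, *Mog* and *Opalin*. They were listed by symbol and matched to their Ensembl rows, and all 8 were found among the 32493 genes of the count table. The libraries were made from neural stem cells (NSCs) of E14.5 mouse embryos on a C57BL/6J background, grown for several passages in proliferation medium. The cko embryos were miR-151 fl/fl and carried Emx1-IRES-Cre. The ctrl embryos had the same floxed alleles and no Cre, and the sample labels name them wt. Emx1-IRES-Cre is active in the dorsal telencephalon, so cells that come from outside that territory would keep the floxed locus, and the level of miR-151 in these libraries was not analysed here. The table has 3 cko and 3 ctrl columns, but ctrl column 2 is the mean of ctrl columns 1 and 3, rounded up, in 32493 of 32493 genes. It was therefore left out, and 3 cko libraries were compared with 2 ctrl libraries.

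Myelin is the membrane that oligodendrocytes wrap around axons in the central nervous system. As background, a precursor cell first leaves the cell cycle, then switches on the proteins that coat and compact the membrane, and only later the proteins of the outermost layer. Myelin genes are therefore used as marks of how far oligodendrocytes have matured, and NSC cultures can form such cells when some of the cells differentiate. In RNA from a whole culture, fewer oligodendrocytes and less myelin RNA in each of them cannot be told apart.

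The 5 libraries held 17883796 to 23335736 counts, so 3 counts, taken as the floor of detection, corresponded to 0.129 to 0.168 CPM, which is the count scaled to library size. The values below are CPM normalized by the TMM method. Of the NSC markers, the fatty acid binding protein gene *Fabp7*, the highest per kilobase, was at 1897 CPM on average in ctrl and 2121 in cko NSCs (adjusted p = 0.361 in edgeR). *Nes*, which encodes nestin, had the largest rise (503 to 991 CPM, adjusted p = 0.00287), and the transcription factor gene *Pax6* the lowest log2 fold change (-0.03, adjusted p = 0.857). Microglial RNA was near 0 (summed level of 6 markers 0.0459 to 0.906 CPM, with *Cx3cr1* and *Tmem119* at 0 counts in every library). *Xist*, the RNA of the inactive X chromosome, measured 2890 and 2550 CPM in ctrl and 786 to 893 CPM in cko NSCs, and 4 Y-linked genes were higher in cko NSCs (log2 fold changes 0.92 to 1.40, adjusted p from 0.000389 to 0.0133 in edgeR). Sex-linked RNA thus moved with the genotype, and its part in the results below was not tested.

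*Mag* RNA was almost lost from cko NSCs, and *Mbp* RNA fell 17.9-fold but stayed well above the floor. *Cnp* and *Cldn11* RNA fell to a smaller extent and also stayed well detected. *Mog* did not pass the test, *Mal* differed more between the ctrl libraries than between the genotypes, and *Mobp* and *Opalin* had too few counts to be tested. Thus 4 of the 6 genes that passed the filter on low counts fell in cko NSCs, with an adjusted p below 0.05 (edgeR's quasi-likelihood test), against 8.57% of all 16710 genes tested. None was higher, against 7.86% of all genes, and none was higher at an unadjusted p under 0.05 or in DESeq2. *Mag*, with 84 and 48 counts in ctrl and 0, 2 and 0 in cko libraries, passed the filter through its ctrl libraries alone. It could therefore enter the count only as a fall.

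**Figure D1:**
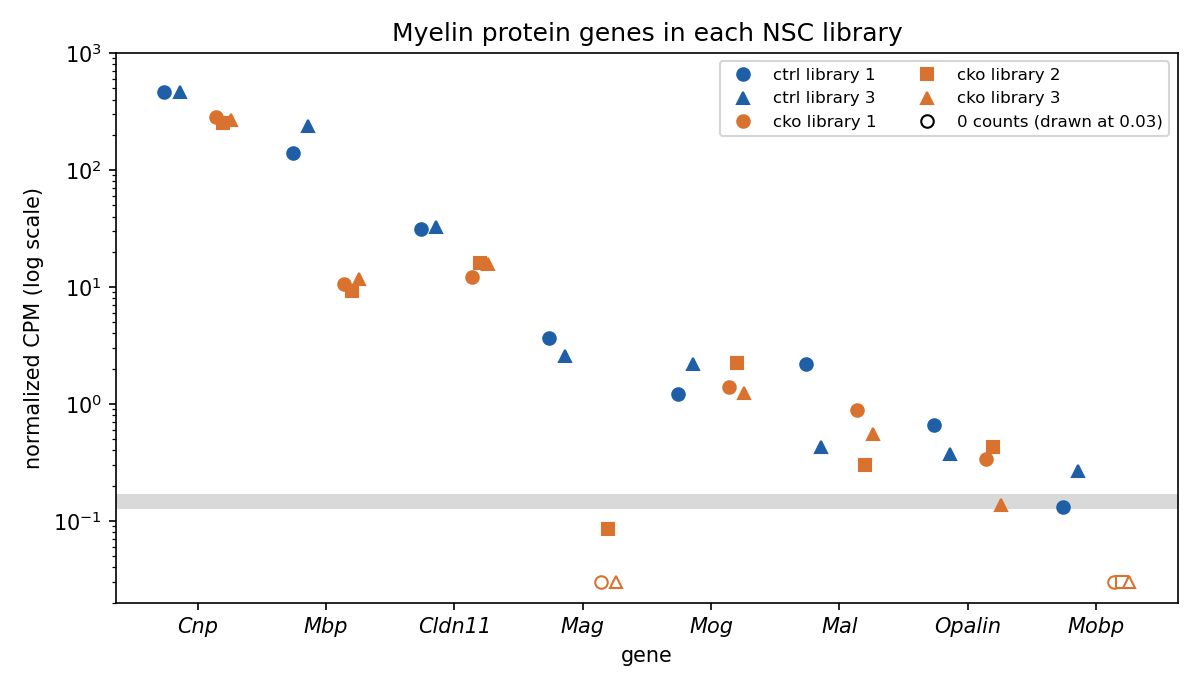
Normalized CPM (log scale) of the 8 genes in each library, with ctrl in blue and cko in orange. Open symbols are libraries with 0 counts, drawn at 0.03, and the grey band marks the level of 3 counts. The ctrl points lie above all cko points for *Cnp*, *Mbp*, *Cldn11*, *Mag* and *Mobp*, and the genotypes overlap for *Mog*, *Mal* and *Opalin*.

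Among the proteins of compact myelin, *Mbp* encodes myelin basic protein, which holds the inner faces of the membrane together. The gene (ENSMUSG00000041607) covers 82475146 to 82585637 of chromosome 18, plus strand, in GRCm38. Its level was 139 and 238 CPM in ctrl libraries 1 and 3, and 10.5, 9.29 and 11.8 CPM in cko libraries 1, 2 and 3. Each cko library was far below the lower ctrl library, and the cko libraries differed among themselves by no more than 1.27-fold. The fall was 17.9-fold (log2 fold change -4.16, 95% interval -4.70 to -3.63, adjusted p = 0.000367 in edgeR), which placed *Mbp* at rank 8 of the 16710 genes by p-value. The cko libraries kept 188, 217 and 256 counts, so the remaining RNA was measured well above the floor. The *Mbp* locus also produces the longer Golli transcripts, which start upstream and are made outside the oligodendrocyte lineage too. The annotation lists 16 transcripts of the gene, and counts per gene do not separate the classic from the Golli forms.

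*Mobp* encodes the small basic protein of compact myelin and the gene (ENSMUSG00000032517) covers 120149707 to 120181484 of chromosome 9, plus strand. It had 3 and 5 counts in the ctrl libraries and 0 counts in each of the 3 cko libraries. Set against the floor of 3 counts over the cko group, it was at least 4.02-fold lower in cko NSCs, with the ctrl counts taken as observed. The exact interval of the ratio, which covers the counting error of both genotypes, starts at 2.58. Ctrl library 1, with 3 counts, was itself at the floor. Its exons overlap those of *Gm38642* on the same strand, so these few reads are uncertain. Without the filter on low counts *Mobp* did not pass either (adjusted p = 0.105 in edgeR). That fit gave *Mbp* an adjusted p of 2.45e-297, against 0.000367 in the main edgeR fit. Its p-values are therefore not comparable with those of the main fit. *Mal* encodes a proteolipid that sorts cargo to the myelin membrane (ENSMUSG00000027375, chromosome 2, minus strand, 127633226 to 127656695). It was at 2.18 CPM in ctrl library 1 but at 0.426 in ctrl library 3, a 5.12-fold difference, and at 0.894, 0.300 and 0.551 CPM in the cko libraries. Only ctrl library 1 stood apart, and ctrl library 3 lay within the cko range. The log2 fold change of *Mal* was -1.22 (95% interval -2.88 to 0.44, adjusted p = 0.277 in edgeR). It was 0.40 without ctrl library 1 and -1.93 without ctrl library 3, and each of these fits rests on a single ctrl library.

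*Cnp* and *Mag* mark the cytoplasm-filled parts of the sheath. *Cnp* encodes the phosphodiesterase CNPase, which keeps cytoplasmic channels open and appears early in the lineage, already in precursors. The gene (ENSMUSG00000006782) spans 100574904 to 100591729 on the plus strand of chromosome 11. Its ctrl libraries held 461 and 460 CPM, and its cko libraries 286, 254 and 265 CPM. The ctrl libraries were nearly identical (1.001-fold apart), and all cko libraries lay below them. The fall of 1.72-fold (log2 fold change -0.78, 95% interval -0.96 to -0.59, adjusted p = 0.00201 in edgeR) was short of the study's own threshold, a log2 fold change beyond 0.9 with an unadjusted p under 0.01. The paper applied that threshold to DESeq2, whereas here it was applied to the edgeR fit of 5 libraries. At that threshold 3 of the 6 tested genes were lower, *Mbp*, *Mag* and *Cldn11*, against 4.17% of all tested genes. *Cnp* shares 154 bp of exon, or 4.23% of its exon length, with *Dnajc7* on the opposite strand. *Dnajc7*, a chaperone gene, was itself lower in cko NSCs (log2 fold change -0.51, adjusted p = 0.0104 in edgeR), and its part in the counts of *Cnp* was not tested.

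*Mag* encodes the adhesion protein of the innermost myelin layer, which faces the axon. The gene (ENSMUSG00000036634) covers 30899176 to 30914873 of chromosome 7, minus strand. The ctrl libraries held 84 and 48 counts, or 3.66 and 2.56 CPM. The cko libraries held 0, 2 and 0 counts. All cko libraries were thus at or under the floor, while both ctrl libraries were clearly above it. Summed over the libraries, 132 counts in ctrl stood against 2 counts in cko, a ratio of 99.6 after scaling to library size (95% exact interval 27.0 to 831, for counting error only). The adjusted p was 0.00224 in edgeR, and the fitted log2 fold change of -6.38, the fifth lowest of the 16710 genes tested, depends on how such small counts are handled. Without cko library 2, which held the only cko reads, it was -9.00.

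The bases before the annotated start are shown for the called genes *Mag* and *Cnp*, and for *Mog*, whose level did not pass the test. The called gene *Cldn11* held none of the motifs searched and is not shown, and *Mbp* had no promoter entry. The sequences are from RefSeq (GRCm38.p6), where 7 of the 8 genes matched a promoter entry, and end before the first start annotated in RefSeq or GENCODE. Capitals mark matches, on either strand, to CTGGNAC, the motif of the myelin regulator MYRF, and to ACAAAG, a motif of SOX factors such as SOX10. They are chr7:30914923-30915172 on the minus strand, chr11:100574689-100574903 on the plus strand and chr17:37023399-37023648 on the minus strand.
Mag: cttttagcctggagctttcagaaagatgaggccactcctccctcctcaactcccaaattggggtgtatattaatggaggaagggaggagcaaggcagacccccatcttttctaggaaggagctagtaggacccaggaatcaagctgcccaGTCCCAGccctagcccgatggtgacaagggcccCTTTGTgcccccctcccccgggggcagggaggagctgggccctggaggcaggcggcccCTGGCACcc
Cnp: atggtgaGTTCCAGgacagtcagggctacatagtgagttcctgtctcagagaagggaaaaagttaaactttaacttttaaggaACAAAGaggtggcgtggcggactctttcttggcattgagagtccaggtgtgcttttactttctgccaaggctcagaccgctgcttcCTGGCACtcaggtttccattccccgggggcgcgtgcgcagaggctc
Mog: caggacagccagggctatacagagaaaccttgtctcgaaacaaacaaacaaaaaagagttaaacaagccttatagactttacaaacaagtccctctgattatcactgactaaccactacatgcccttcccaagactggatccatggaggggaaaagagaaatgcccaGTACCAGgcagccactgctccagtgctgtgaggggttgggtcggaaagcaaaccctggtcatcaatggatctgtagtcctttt
In these windows *Mag* and *Cnp* each held 2 matches to the MYRF motif and 1 to the SOX motif, none of them overlapping. RefSeq lists further starts of *Mag*, which lie inside the annotated gene. The window at chr7:30914864-30915113 held the same matches, and that at chr7:30914322-30914571 held no match to either motif. *Mog* held 1 match to the MYRF motif. Among 32851 promoter windows, each the 250 bases before a RefSeq start, 16.1% held CTGGNAC and 16.5% held ACAAAG. *Mobp* held 6 matches to ACAAAG and *Opalin* 1, and *Mal* and *Cldn11* held none of either motif. No promoter of the 7 genes held AACAAT (9.42% of all promoters), the E-box CAGCTG (13.0%) or TATAAA (12.4%). These matches are letters in a short window and say nothing of binding.

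*Cldn11* encodes claudin 11, the protein of the tight junctions that seal the spiral of the sheath. The gene (ENSMUSG00000037625) is annotated with 1 transcript on the plus strand of chromosome 3, from 31149920 to 31164324. Ctrl libraries had 31.4 and 32.5 CPM, against 12.1, 15.9 and 15.8 CPM in cko libraries. Both ctrl libraries were above all 3 cko libraries. The gene fell 2.18-fold (log2 fold change -1.12, 95% interval -1.46 to -0.79, adjusted p = 0.00368 in edgeR). Claudin 11 is also made by fibroblasts of the brain coverings. The fibroblast markers *Col1a1*, *Dcn*, *Lum* and *Pdgfrb* were scarce, with a summed level of 2.70 and 3.57 CPM in ctrl and 1.06 to 1.67 CPM in cko libraries, which moved in the same direction as *Cldn11*. Their part in its fall was not tested.

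*Mog* and *Opalin* belong to the late stage of maturation. *Mog* encodes a protein of the outermost myelin surface (ENSMUSG00000076439, chromosome 17, minus strand, 37010743 to 37023398). Its level was 1.22 and 2.18 CPM in ctrl libraries, and 1.40, 2.23 and 1.24 CPM in cko libraries. The highest value of all was in a cko library and the lowest in a ctrl library. The log2 fold change was -0.05 (95% interval -0.98 to 0.88, adjusted p = 0.947 in edgeR), an interval that leaves room for a change of up to 1.84-fold upward or to 0.507 of the ctrl level. *Opalin*, a membrane protein of the paranodal loops and inner tongue (ENSMUSG00000050121, chromosome 19, minus strand, 41061710 to 41077113), had 15 and 7 counts in the ctrl libraries and 6, 10 and 3 counts in the cko libraries. The genotypes overlapped, and the ratio of ctrl to cko over summed counts was 1.75 (95% exact interval 0.902 to 3.41, counting error only).

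**Figure D2:**
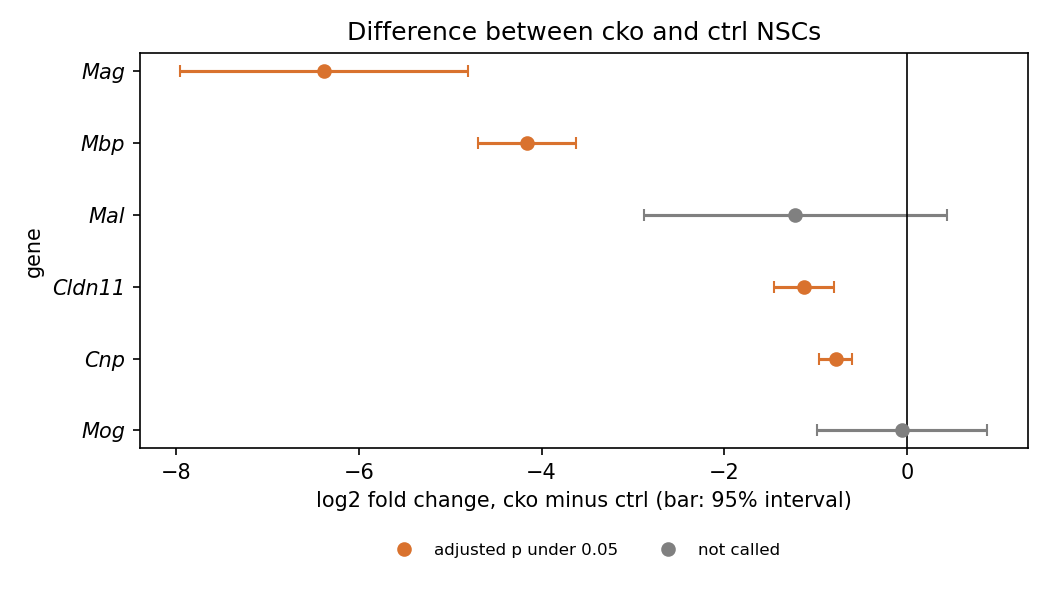
Log2 fold change, cko minus ctrl, of the 6 tested genes with its 95% interval from edgeR. Orange points have an adjusted p under 0.05. *Mag* and *Mbp* lie at -6.38 and -4.16, *Cldn11* and *Cnp* at -1.12 and -0.78, and the intervals of *Mal* and *Mog* cross 0.

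The members did not fall by the same factor. Within each library, the CPM of *Mbp* was 0.302 and 0.517 times that of *Cnp* in ctrl NSCs, and 0.0367, 0.0366 and 0.0443 times in cko NSCs. The ratio of *Mbp* to *Cldn11* was 4.43 and 7.31 in ctrl libraries and 0.583 to 0.871 in cko libraries. Neither ratio overlapped between the genotypes. With 3 against 2 libraries an exact two-sided permutation test cannot give a p below 0.2, and both ratios gave this smallest value. The fitted 95% intervals of the *Mbp* and *Cnp* fold changes (-4.70 to -3.63 and -0.96 to -0.59) are far apart. The ratio of *Cnp* to *Cldn11* was 14.7 and 14.2 in ctrl libraries and 23.7, 15.9 and 16.7 in cko libraries. It was higher in each cko library, with the same smallest p of 0.2 in the exact test, but the gap was small beside the spread within cko.

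Summed over the 8 genes, myelin RNA was 639 and 736 CPM in ctrl libraries and 311, 282 and 295 CPM in cko libraries. *Cnp* made up 72.1% and 62.5% of the sum in ctrl libraries and 90.0% to 91.9% in cko libraries. *Mbp* made up 21.7% and 32.3% in ctrl and 3.30% to 3.99% in cko libraries. The residual myelin RNA of cko NSCs was therefore mostly that of *Cnp*. Within the ctrl group the members did not share 1 order either. *Mbp*, *Mog* and *Mobp* were higher in ctrl library 3, whereas *Mag*, *Mal* and *Opalin* were higher in ctrl library 1.

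Per kilobase of annotated exon, *Cnp* had the highest ctrl level (126.5 ± 0.0723 CPM per kb, SD, n = 2). It was followed by *Mbp* (22.2 ± 8.26) and *Cldn11* (17.1 ± 0.43), which did not differ beyond this spread. *Mog* (1.00 ± 0.40), *Mag* (0.764 ± 0.192) and *Mal* (0.469 ± 0.447) formed a lower tier in which neighbours overlapped. *Opalin* (0.174 ± 0.0675) lay within the spread of *Mal*, and *Mobp* was lowest (0.0290 ± 0.0140). In cko NSCs the order was *Cnp* (73.7 ± 4.53, n = 3), *Cldn11* (7.82 ± 1.18), *Mbp* (1.24 ± 0.145) and *Mog* (0.951 ± 0.311), and the levels of *Mbp* and *Mog* were within their spread. *Mal* (0.209 ± 0.107) and *Opalin* (0.102 ± 0.0504) came next, also within their spread. *Mag* (0.00701 ± 0.0121), which was above *Opalin* in ctrl NSCs, was below it in cko NSCs.

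**Figure D3:**
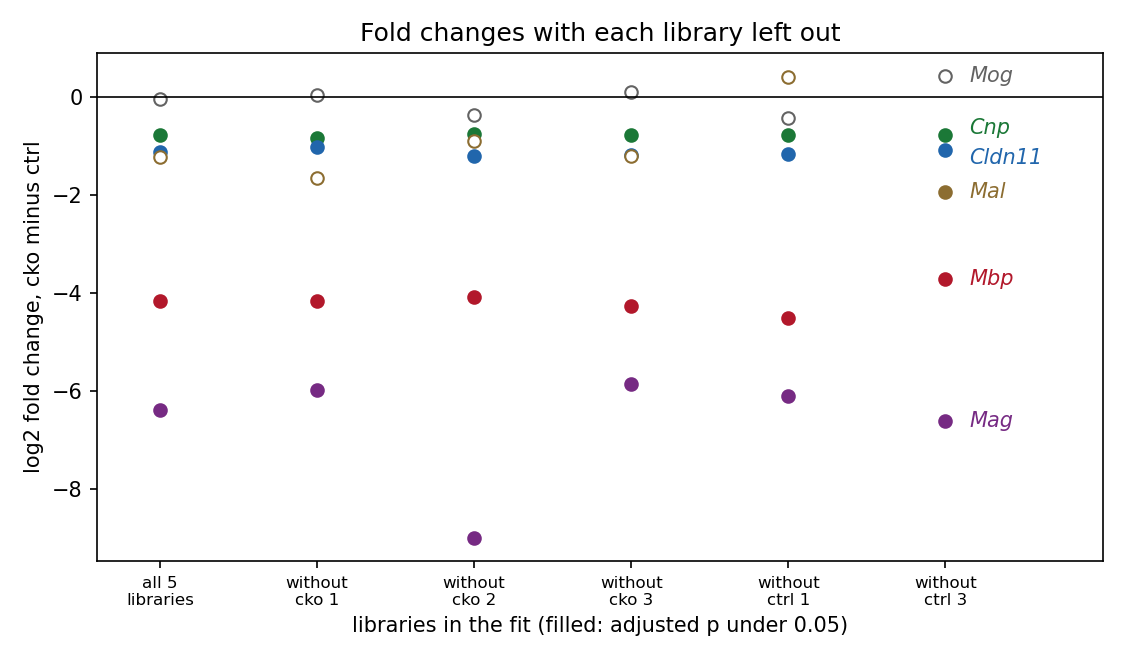
Log2 fold change of the 6 tested genes with all 5 libraries and with each library left out, where filled points have an adjusted p under 0.05 in edgeR. *Mbp*, *Mag*, *Cnp* and *Cldn11* are filled with all 5 libraries and in each fit without a cko library. The fits without a ctrl library rest on a single ctrl library, so their p-values hold no ctrl spread. *Mog* crosses 0, and *Mal* ranges from -1.93 to 0.40.

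Leaving out each cko library in turn left all 4 calls in place, with adjusted p-values of at most 0.0247 in edgeR. Without either ctrl library a single ctrl library remains, so the p-value holds no ctrl spread and only fold changes are read. With any library left out, ctrl or cko, the log2 fold change of *Mbp* ranged from -4.51 to -3.72. That of *Cnp* ranged from -0.84 to -0.75 and that of *Cldn11* from -1.20 to -1.02. In each of these 4 genes the ctrl and cko libraries did not overlap, a pattern that 24.2% of all tested genes showed in the lower direction. The study calls the genotypes littermates, but no source used here says whether each library is a separate embryo or which libraries share a litter. These p-values measure the spread between libraries, which may be technical.

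Other genes of the oligodendrocyte lineage were read in the same fit, by lists written with earlier results of these data known. Their counts are descriptions, beside a median log2 fold change of -0.003 over all 16710 genes. Over all these genes, 8.57% were lower and 7.86% higher at an adjusted p under 0.05 in edgeR. Of 16 other myelin membrane proteins 12 were tested, of which 2 were lower and 1 higher at an adjusted p under 0.05, with a median of -0.18. DESeq2 called 3 lower and 3 higher, and at an unadjusted p under 0.05 edgeR had 4 lower and 3 higher. The largest fall was that of *Tmem88b* (log2 fold change -3.22, adjusted p = 0.00106 in edgeR). The gene with the highest level per kilobase, *Gpm6b*, a proteolipid also made by neurons and NSCs, changed by -0.28 on the log2 scale (adjusted p = 0.248), and the largest positive value, of the connexin gene *Gjc3*, was 0.59 (adjusted p = 0.0805). The median of the 6 tested myelin genes was -1.17.

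Of 6 enzymes of myelin lipids, 4 were lower and none higher at an adjusted p under 0.05 (median -1.09). Over all genes the shares were 8.57% and 7.86%. None of the enzymes was higher at an unadjusted p under 0.05 or in DESeq2. *Fa2h*, which makes the hydroxylated fatty acids of myelin galactolipids, fell from 23.6 to 0.997 CPM (log2 fold change -4.57, adjusted p = 0.000367 in edgeR). *Aspa*, the aspartoacylase of mature oligodendrocytes, was at 3.73 and 3.71 CPM on average (adjusted p = 0.982). *Cers2*, the ceramide synthase with the highest level per kilobase of this list, was at 85.8 and 70.6 CPM on average (adjusted p = 0.0511).

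Of 10 genes of the precursor and newly formed stages, 6 were lower at an adjusted p under 0.05 and none higher (median -1.32). Over all genes the shares were 8.57% and 7.86%. In edgeR 2 were higher at an unadjusted p under 0.05, and DESeq2 called 2 higher at an adjusted p under 0.05. Among the 6 lower genes, *Bmp4* had 13 counts in each ctrl library and 0, 1 and 1 in cko libraries. It thus passed the filter on low counts through ctrl alone. *Enpp6*, a mark of newly formed oligodendrocytes, had the largest fall (68.1 to 1.77 CPM, log2 fold change -5.33, adjusted p = 0.00109 in edgeR). The precursor gene *Lhfpl3* had the largest positive value (0.45, adjusted p = 0.0534). *Ptprz1*, the most abundant per kilobase and a gene of precursors and radial glia, was at 3496 and 3461 CPM (log2 fold change -0.01, adjusted p = 0.934).

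Of 10 transcription factors of the lineage, 6 were lower and 3 higher at an adjusted p under 0.05 in edgeR (median -0.56). Over all genes the shares were 8.57% and 7.86%. *Myrf*, which encodes the regulator that switches on myelin genes, fell from 95.2 to 12.8 CPM (log2 fold change -2.90, adjusted p = 0.000146 in edgeR). *Olig1*, which acts from the precursor stage, rose from 1222 to 1892 CPM (0.63, adjusted p = 0.0108), and *Myt1* rose by 0.89 on the log2 scale (adjusted p = 0.00251). These values stand beside those of *Mbp* and *Mag* as measurements of the same libraries, and which gene acts on which was not tested.

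**Figure D4:**
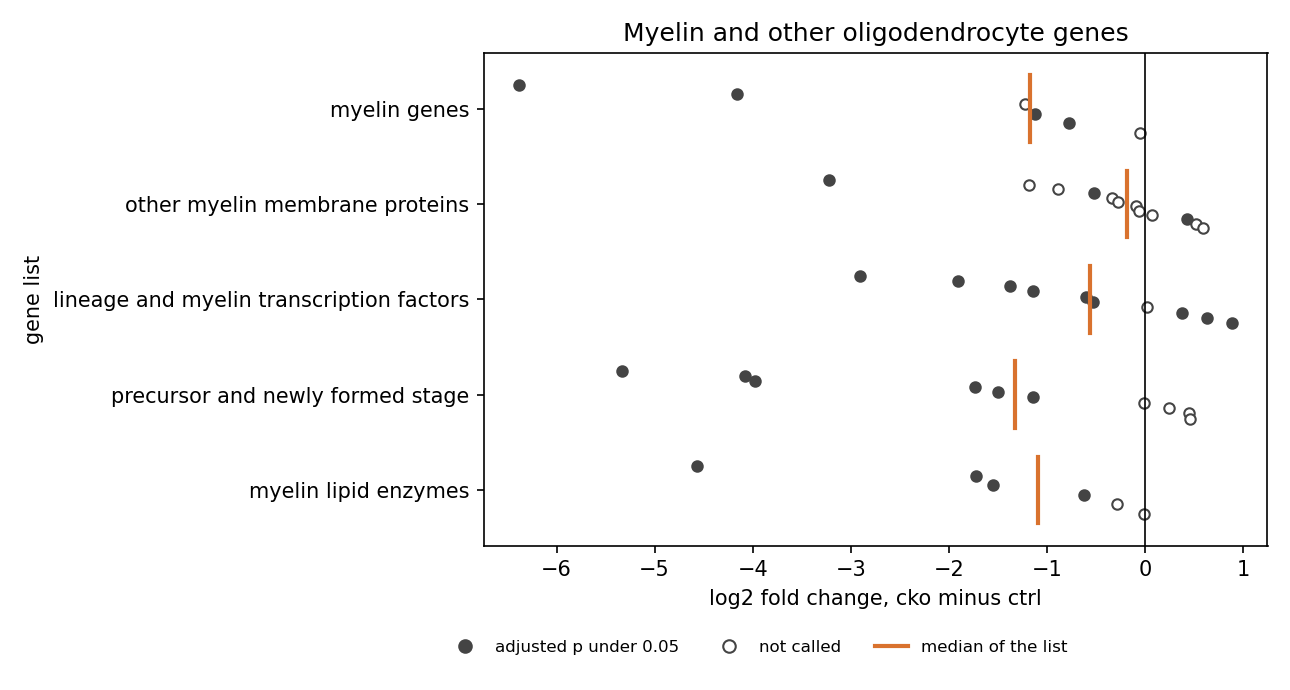
Log2 fold change, cko minus ctrl, of each tested gene in the myelin list and in 4 other lists, with filled points at an adjusted p under 0.05 and the orange line at the median of the list. The medians are -1.17, -0.18, -0.56, -1.32 and -1.09 from top to bottom, and points lie on both sides of 0 in 3 of the other lists.

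Markers of other cells moved in different directions, counted here at an adjusted p under 0.05 in edgeR. Over all tested genes 8.57% were lower and 7.86% higher. Of 8 astrocyte markers 5 were lower (summed level 4700 and 3890 CPM in ctrl, 1800 to 2710 in cko libraries), and of 7 NSC markers 3 were higher (6240 and 5070 CPM in ctrl, 7200 to 7660 in cko libraries). Of 5 tested neuronal markers 1 was lower and 1 higher (1100 to 1220 CPM in all libraries). In the astrocyte list *S100b* had the largest fall (log2 fold change -2.31), *Slc1a3* the highest level (-0.79) and *Aldh1l1* the least negative value (-0.18, adjusted p = 0.657 in edgeR). In the neuronal list *Dcx* fell by 1.51 and *Syt1* rose by 1.57 on the log2 scale, and *Map2*, the highest per kilobase, was at 0.14 (adjusted p = 0.248). Schwann cells, the myelin-forming cells of peripheral nerve, also express *Mbp* and *Mag*. Of 3 tested Schwann cell markers 1 was lower, *Egr2*, a transcription factor of these cells (9.22 to 3.20 CPM, adjusted p = 0.00472 in edgeR). *Prx*, which encodes periaxin, had the highest value of this list (log2 fold change 0.56, adjusted p = 0.187). Endothelial markers summed to 4.01 to 6.70 CPM, with *Cdh5* at 0 counts throughout, and *Pecam1* (-0.22) and *Kdr* (0.43) did not pass the test. In the fibroblast list neither *Col1a1* (-1.17) nor *Pdgfrb* (-0.53) passed it. The part of these cells in the results was not tested.

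Genes of all lists used here were left out of a search for profiles over the 5 libraries like the mean of the tested myelin genes. Of the other tested genes, the most alike were *Lin28b*, *Sema4a*, *Lgi3*, *Shisal1* and *Xist*. Their root mean square differences were 0.0379 to 0.0962 on the log2(CPM + 0.5) scale. *Lgi3* was at 53.2 and 48.6 CPM in ctrl libraries and at 15.4 to 16.5 CPM in cko libraries. *Sema4a*, a semaphorin gene, was at 11.3 and 11.8 CPM in ctrl and 3.47 to 3.58 CPM in cko libraries. *Lin28b* was at 0.916 and 0.906 CPM in ctrl libraries and at 0 counts in all cko libraries. Its fitted log2 fold change was -7.26, so its place in this list depends on the 0.5 added before the log. This likeness is a description over 5 libraries, and *Xist* is among the genes it picks out.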

How the data were processed

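RNA-seq was run on E14.5 NSCs, and the authors deposited raw counts per Ensembl gene in 6 columns, without normalization. By the paper's methods, reads were checked with FastQC, filtered with NGSQC and aligned to mm10 with HISAT2, whereas the submitters' processing notes name GRCm39. The counting tool, annotation and strand setting are not given in the sources used here, so genes that overlap on either strand are uncertain. Names, positions and exon lengths came from GENCODE M21 (GRCm38), which matched 31836 of 32493 gene IDs.

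Counts of 5 libraries were filtered by expression and scaled by TMM. The genotypes were compared over 16710 genes with edgeR 4.0.16 (quasi-likelihood test, R 4.3.3), with Benjamini-Hochberg adjustment. The averaged ctrl column was used only in an alternative. Errors are SD over libraries, and 95% intervals are from the edgeR fit or, for summed counts, exact binomial. Intervals and floors cover counting error only where so named. The alternatives were DESeq2 1.42.0, other size factors and filters, the replicate block, all 6 columns and leaving out each library. The steps were tested on simulated data.

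The 8 genes and all lists were chosen with earlier results of these data known. From each list the largest fall, the largest rise and the highest ctrl level per kilobase were to be named. A search for the seed of miR-151-5p was not run here. Of the endothelial list, *Cldn5* was not analysed here, and 1 marker gene is not reported here.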

Additional observations from a re-analysis of the deposited data

How the results depend on the processing

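The count of myelin genes called lower, 4 of 6, was 3 or 4 in every alternative that kept both ctrl libraries. It was 3 at the study's threshold, where *Cnp* fell short, and with at least 10 counts in every library, where *Mag* was not tested. Leaving out 1 cko library gave 4. The fits without a ctrl library rest on a single ctrl library, so only their effect sizes are read. The same-numbered libraries of the genotypes deviated together with r = 0.143 and 0.0507 across genes. The deviations of the ctrl libraries mirror each other, so these values cannot decide whether the libraries are paired. With the replicate block the count was 4, and *Mbp* had a log2 fold change of -4.04, *Cnp* of -0.74 and *Cldn11* of -1.20. *Mag* was at -9.00 in that fit, as it was without cko library 2. No ctrl library used here has replicate number 2, so cko library 2 adds nothing to the genotype difference in this fit. The block is therefore no separate check on all 5 libraries. *Mog* changed sign without cko library 1, cko library 3 or ctrl library 3 (range -0.43 to 0.42), and *Mal* without ctrl library 1 (range -1.93 to 0.40). The causes were not tested. Over all genes, 1432 were lower at an adjusted p under 0.05, 416 without cko library 2, 457 without cko library 3, 907 without cko library 1, 2237 without a filter and 2794 with all 6 columns. The fit without a filter gave far smaller p-values at nearly the same fold changes, for *Mbp* an adjusted p of 2.45e-297 in edgeR. Its count is therefore not comparable with the others. Counts from the fits without a ctrl library are not given, since these rest on a single ctrl library. Per kilobase of the longest transcript in place of all exons, *Mbp* was at 39.3 CPM per kb in ctrl NSCs, above *Cldn11* beyond its SD of 14.6. By this length *Mag* was at 1.28 ± 0.32 and *Mog* at 1.00 ± 0.40, which is within their spread. Depth limits *Mobp* and *Opalin*, which had at most 15 counts in a library.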
